A study of Rattus norvegicus with 8 samples.

Results

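The genes described here are the platelet-derived growth factor (PDGF) ligands Pdgfa and Pdgfb and the receptors Pdgfra and Pdgfrb, 4 of the 32623 genes counted. They were taken by symbol. The identifiers were ENSRNOG00000001312 for Pdgfa, ENSRNOG00000017197 for Pdgfb, ENSRNOG00000002244 for Pdgfra and ENSRNOG00000018461 for Pdgfrb. PDGF chains pair into secreted dimers that bring receptor tyrosine kinases together on the target cell. The A chain acts through the alpha receptor, and the B chain can engage either receptor. In the spinal cord, Pdgfra is a textbook mark of oligodendrocyte precursors, whose division and survival depend on the A chain, and of perivascular and meningeal fibroblasts. Pdgfrb marks the mural cells (pericytes and smooth muscle) that endothelial PDGF-B recruits to vessels, and it is also found on fibroblasts that enter the lesion scar.

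Single-cell RNA sequencing (10x Chromium 3' V3) was made of spinal cord from female Wistar rats aged 8 weeks, with 2 libraries in each of 4 groups. The sham group had a laminectomy alone, and the mild, moderate and severe groups had a contusion at T9 from a 10 g weight dropped from 12.5, 25 and 50 mm. Tissue of 10 mm length was taken on day 7 after surgery and digested with enzymes to single cells. The labels name no allele and no drug in any group, and by them the groups differ by surgery alone. The paper's methods add injections of buprenorphine and cefazolin in the days after surgery, without setting any group apart. The labels number the libraries without tying them to animals, so p-values measure the spread between libraries, which may be technical. The comparisons ask which cell types carried the ligands and the receptors, and whether these transcripts differed between injury groups.

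The tables held 68658 cells, with 31482153 to 131045446 unique molecular identifiers (UMIs, counted transcripts) per library, and 55449 of the cells were kept. Kept cells had a median of 2745 UMIs in sham 1 and of 6146 to 10814 in the other libraries. Both sham libraries stood apart: neutrophils made up 52.5% of the cells of sham 1, and macrophages/microglia 83.6% of those of sham 2. Between 5 and 40 barcodes were shared by any pair of libraries. Of 24 clusters, 4 stayed unnamed (7992 cells). Cell names rest on marker lists that left out the 4 genes. Every marker listed for macrophages/microglia (20), fibroblasts (18), endothelial cells (14) and mural cells (14) was higher in its own cells than in the rest. So were 14 of 15 for oligodendrocyte precursors, with Neu4 at 0. The names were given from such lists, so this describes the cells and is no independent check of the names. The classes that enter the comparisons were macrophages/microglia (21204 cells), oligodendrocyte precursors (4107), fibroblasts (2254) and endothelial cells (434). Endothelial cells numbered 178 and 51 in the sham libraries, 4 and 22 in mild, 4 and 0 in moderate, and 73 and 102 in severe. A library entered for a cell type where it held 20 or more of its cells, so endothelial values rest on 5 libraries and moderate injury has none.

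Levels below are in CPM: the UMIs of a gene were added up for a cell type in each library and scaled to a common total. They are not divided by gene length, since 3' counting reads 1 end of a transcript, and levels are compared between cell types for 1 gene and not between genes. Pdgfa was the most abundant of the 4 in total, with 38442 UMIs in kept cells. Oligodendrocytes held it at 261 ± 74.5 CPM (SD, n = 8), from 188 to 389 CPM. Oligodendrocyte precursors held 132 ± 25.9 CPM (n = 8), with 130 and 79.2 CPM in sham, 122 and 155 in mild, 119 and 151 in moderate, and 150 and 153 in severe. Fibroblasts came next with 99.6 ± 26.1 CPM (n = 8), in a range of 67.6 to 144 CPM. Each of these steps held within every library: oligodendrocytes exceeded precursors in 8 of 8, by 0.95 ± 0.45 (SD) in log2(CPM + 1), and precursors exceeded fibroblasts in 8 of 8. The second step includes precursors with oligodendrocyte markers, which in sham 1 held 41 of the 83 precursor UMIs in 16 cells. Precursors outside that subset and the cycling one held 85.7 CPM in sham 1, 73.7 in sham 2 and 92.7 in mild 1. Fibroblasts there held 108, 75.3 and 113 CPM, and less than these precursors in the other libraries. In sham 2 the fibroblast class held 8 UMIs of Pdgfa, 7 of them in mural cells that clustered with it. The fibroblast clusters described below differed, with 143 ± 41.7 CPM (n = 6) in that led by Igfbp5 and 59.7 ± 14.5 CPM (n = 7) in that led by Dcn. Endothelial cells had 85.5 ± 49.8 CPM (n = 5), astrocytes 76.7 ± 32.8 CPM (n = 7) and neutrophils 59.0 ± 21.3 CPM (n = 7). Fibroblasts did not differ from endothelial cells beyond the spread of the libraries, nor astrocytes from neutrophils, nor neutrophils from macrophages/microglia. Macrophages/microglia held 39.1 ± 13.6 CPM (n = 8), from 23.6 CPM in severe 2 to 61.9 CPM in sham 1. They exceeded monocytes/dendritic cells (7.03 ± 3.40 CPM, n = 6) in 6 of 6 libraries. T cells/NK cells had 4.69 ± 5.08 CPM (n = 7) and erythrocytes 1.88 ± 2.57 CPM (n = 3). Mural cells reached 20 cells only in the sham libraries, with 525 and 98.7 CPM, and their place in this order cannot be set from that pair.

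Pdgfb, with 3129 UMIs, was concentrated in endothelial cells. There it measured 125 CPM in sham 1, 269 in sham 2, 114 in mild 2, 140 in severe 1 and 52.1 in severe 2, a mean of 140 ± 79.4 CPM (n = 5). The next type, macrophages/microglia, held 9.51 ± 6.88 CPM (n = 8). Endothelial cells were higher in 5 of 5 libraries, by 4.03 ± 0.56 in log2(CPM + 1), and no library of either type overlapped the other. T cells/NK cells (8.15 ± 9.47 CPM, n = 7), monocytes/dendritic cells (6.57 ± 5.97 CPM, n = 6) and astrocytes (5.96 ± 7.33 CPM, n = 7) followed in that order, and no neighbours in it, macrophages/microglia included, differed beyond the spread of the libraries. Mural cells held 6.18 and 0 CPM in the sham libraries. Fibroblasts (0.534 ± 0.642 CPM, n = 8) and oligodendrocyte precursors (0.525 ± 0.750 CPM, n = 8) were near 0, as were neutrophils (0.235 ± 0.437 CPM, n = 7), oligodendrocytes (0.142 ± 0.202 CPM, n = 8) and erythrocytes (0.0462 ± 0.0801 CPM, n = 3).

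Among the receptors, Pdgfra (11016 UMIs) was held almost wholly by fibroblasts and oligodendrocyte precursors. In fibroblasts it measured 228 and 56.5 CPM in sham, 113 and 181 in mild, 197 and 328 in moderate, and 115 and 55.1 in severe, a mean of 159 ± 93.1 CPM (n = 8). In sham 2, 21 of the 28 cells of the class were mural cells, which held no Pdgfra, and the 7 cells left without them measured 170 CPM. Precursors held 136 ± 88.8 CPM (n = 8), and the order of the pair did not hold beyond the spread, with fibroblasts higher in 6 of 8 libraries. Astrocytes followed far below at 6.35 ± 3.83 CPM (n = 7), lower than precursors in 7 of 7 libraries, and neutrophils at 2.20 ± 3.29 CPM (n = 7). Oligodendrocytes, which arise from precursors, held 0.841 ± 0.662 CPM (n = 8), macrophages/microglia 0.589 ± 0.626 CPM (n = 8) and monocytes/dendritic cells 0.555 ± 0.924 CPM (n = 6). No UMI of Pdgfra was seen in 434 endothelial cells, which allows a share of cells with a UMI of up to 0.691%, nor in 1674 T cells/NK cells (up to 0.179%), 1210 erythrocytes or 87 mural cells.

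Pdgfrb (3363 UMIs) was highest in mural cells, at 1396 and 1198 CPM in the sham libraries. Fibroblasts ranged from 36.6 to 866 CPM, with a median of 124 CPM over 8 libraries. The highest value was that of sham 2, where most cells of the class were mural cells, and where markers of mural cells (14 genes) summed to 14388 CPM against 379 to 2324 CPM in fibroblasts of the other libraries. With mural cells taken out, sham 2 kept 7 fibroblasts and fell below the limit, and the other 7 libraries held 101 ± 75.5 CPM, from 27.7 to 238 CPM. Endothelial cells followed with 47.6 ± 63.1 CPM (n = 5), and in mild 2, the library with the highest endothelial value (158 CPM), mural markers summed to 2348 CPM against 248 to 488 CPM in the other 4; their part in the result was not tested. Astrocytes (2.74 ± 2.13 CPM, n = 7) lay below endothelial cells in 4 of 4 libraries. Neutrophils (0.712 ± 1.02 CPM, n = 7), oligodendrocytes (0.558 ± 0.856 CPM, n = 8), erythrocytes (0.535 ± 0.926 CPM, n = 3), oligodendrocyte precursors (0.363 ± 0.456 CPM, n = 8) and macrophages/microglia (0.241 ± 0.191 CPM, n = 8) were each below 1 CPM on average. T cells/NK cells and monocytes/dendritic cells had no UMI of Pdgfrb.

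**Figure D1:**
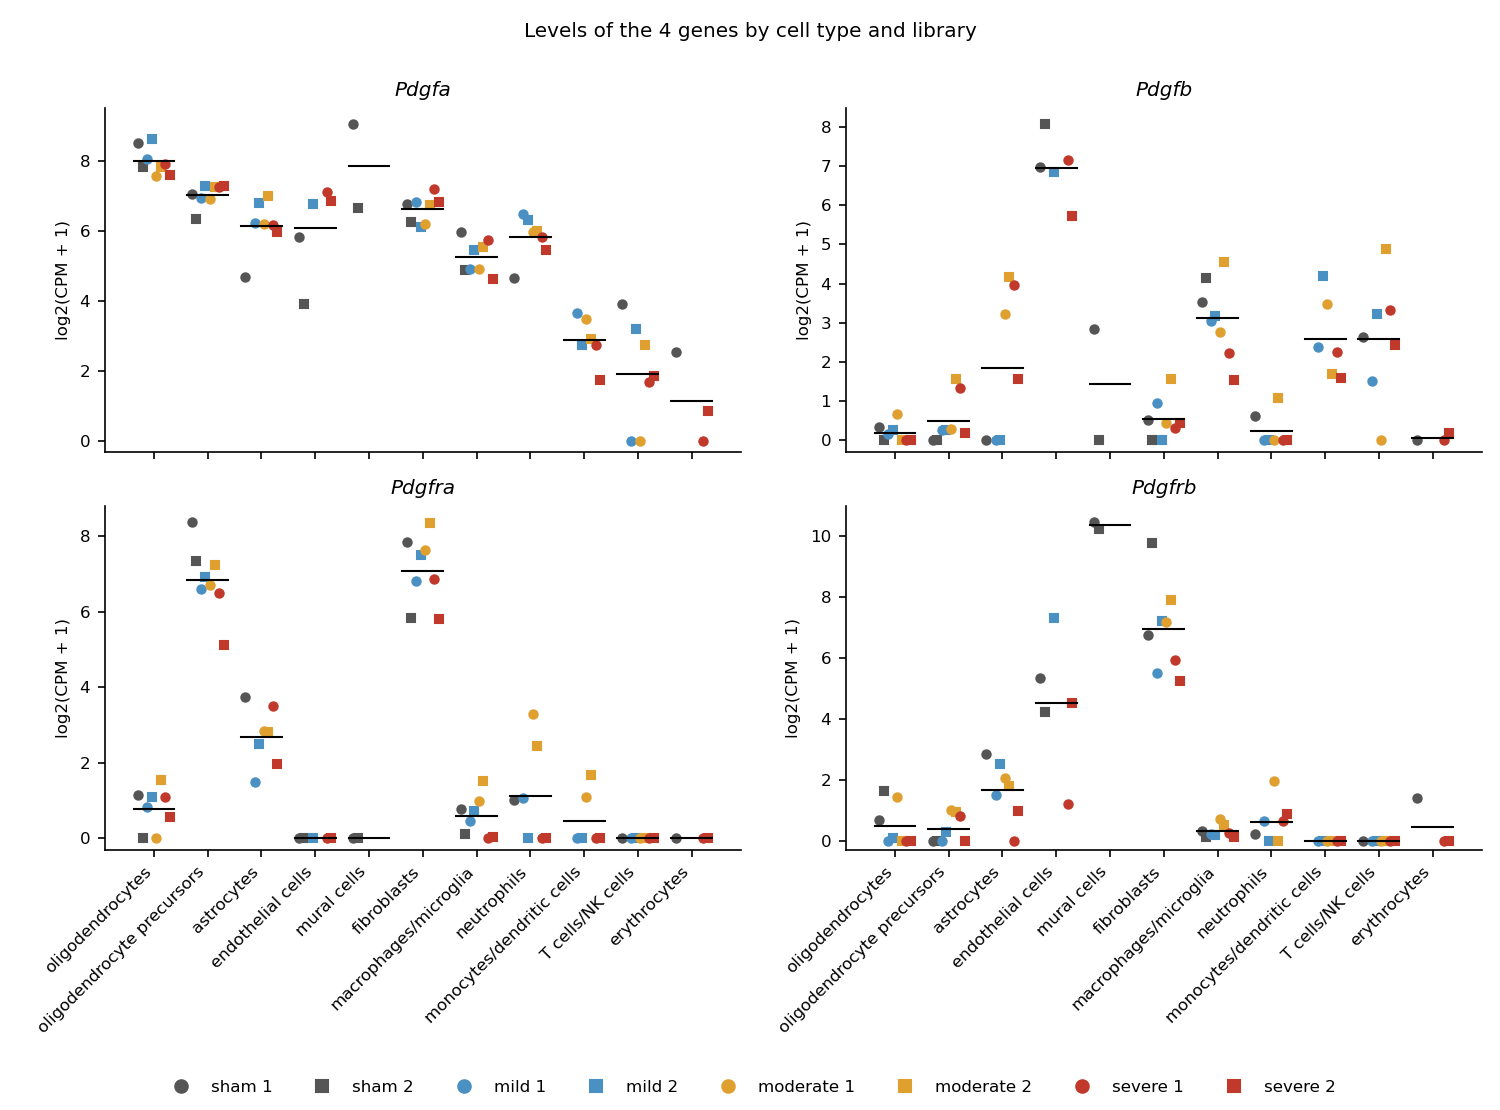
Levels of the 4 genes, as log2(CPM + 1) of UMIs summed per cell type and library (vertical axes), over 11 cell types (horizontal axes); each point is 1 library that held 20 or more such cells, coloured by group with the symbol marking the replicate, and the bar is the mean of the points. Pdgfb stands high in endothelial cells, Pdgfra in fibroblasts and oligodendrocyte precursors, and Pdgfrb in mural cells and fibroblasts.

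Cell types with transcripts of the ligands or receptors were then compared within libraries, over 6 pairs of macrophages/microglia, oligodendrocyte precursors, fibroblasts and endothelial cells for each gene. Oligodendrocytes were not among them, and mural cells were not a type of their own. Of the 24 differences in log2(CPM + 1), 9 passed an exact two-sided sign-flip permutation test with Benjamini-Hochberg adjustment over the 24, each with adjusted p = 0.0208 and all 8 libraries on the same side. In sham 2 the fibroblast class of these differences was mostly mural cells (21 of 28). For the ligands, Pdgfa was lower in macrophages/microglia than in precursors (−1.78 ± 0.48, mean and SD) and than in fibroblasts (−1.36 ± 0.52), and higher in precursors than in fibroblasts (0.42 ± 0.39). Precursors here include those with oligodendrocyte markers, where Pdgfa was higher, and their part in the last difference was not tested. Pdgfb was higher in macrophages/microglia than in precursors by 2.63 ± 1.07 and than in fibroblasts by 2.59 ± 0.93. Macrophages/microglia thus held less of the A chain and more of the B chain than either of these types. For the receptors, Pdgfra was lower in macrophages/microglia than in precursors (−6.27 ± 0.82) and than in fibroblasts (−6.51 ± 0.51). Pdgfrb was lower than in fibroblasts both in macrophages/microglia (−6.63 ± 1.45) and in precursors (−6.55 ± 1.498). Precursors and fibroblasts did not pass for Pdgfra (precursors minus fibroblasts −0.23 ± 0.86, exact p = 0.453, adjusted p = 0.494). Pairs with endothelial cells rest on 5 libraries, where the smallest exact p is 0.0625, so none could pass: Pdgfb was lower than in endothelial cells in 5 of 5 libraries in macrophages/microglia (−4.03 ± 0.56), in precursors (−6.60 ± 1.005) and in fibroblasts (−6.70 ± 0.9997).

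Within macrophages/microglia, clusters were split by listed markers into a microglia-type set, with more microglia than infiltrating macrophage markers, and an infiltrating-type set. In the microglia-type set Pdgfb measured 12.05 and 17.4 CPM in sham, 7.50 and 8.37 in mild, 10.7 and 48.7 in moderate, and 18.2 and 4.93 in severe. In the infiltrating-type set the values were 3.91 and 4.22 CPM in sham, 0.763 and 0.997 in mild, 0.379 and 0.547 in moderate, and 0.357 and 0.0505 in severe. The microglia-type set was higher in 8 of 8 libraries, with means of 15.97 ± 14.00 and 1.40 ± 1.67 CPM and a difference of 2.77 ± 1.17 in log2(CPM + 1). Moderate 2 lay far above the other libraries in the microglia-type set. Pdgfa did not separate these sets beyond the spread (44.3 ± 23.4 and 33.8 ± 10.6 CPM, higher in the microglia-type set in 5 of 8). The microglia-type share of the class was 77.4% and 95.1% in sham, 91.6% and 91.7% in mild, 50.9% and 41.4% in moderate, and 18.1% and 35.9% in severe. An unnamed cluster of 4990 cells led by LOC100911104 and Fn1, whose best-scoring type was macrophages/microglia, held Pdgfb at 0.641 ± 1.01 CPM (n = 5). Clusters are made from the same counts, so levels in sets of clusters are descriptions without a test, here and for the sets that follow.

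**Figure D2:**
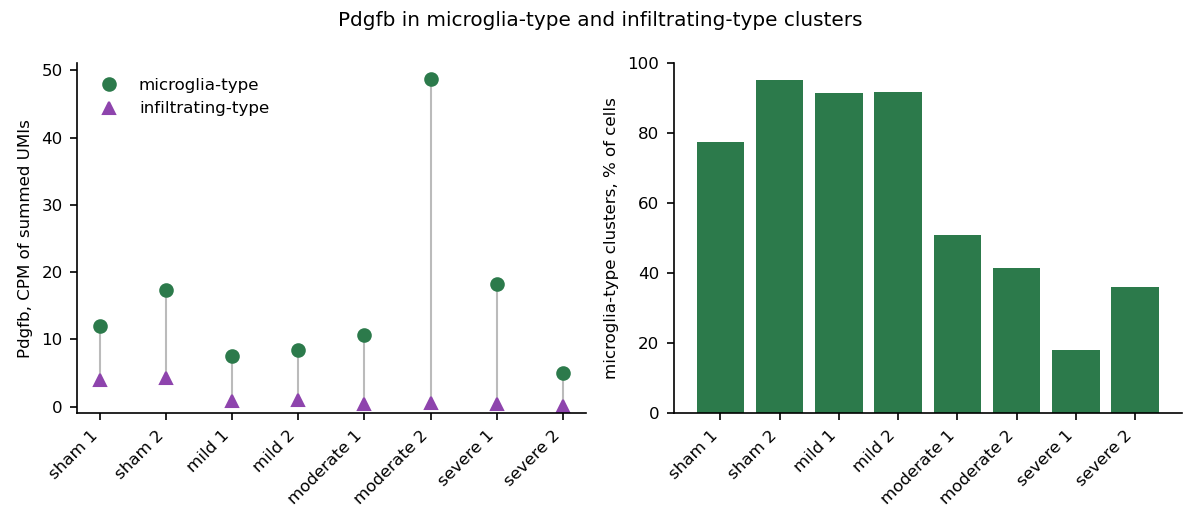
Left, Pdgfb in CPM of summed UMIs (vertical axis) in the microglia-type (circles) and infiltrating-type (triangles) clusters of each of the 8 libraries (horizontal axis); right, the percent of macrophages/microglia in microglia-type clusters in the same libraries. The circle lies above the triangle in 8 of 8 libraries, and the share of microglia-type cells runs from 95.1% in sham 2 to 18.1% in severe 1.

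Fibroblasts fell into a cluster led by Igfbp5 (1336 cells, mural cells left out), which codes for a binding protein of insulin-like growth factors, and a cluster led by Dcn (832 cells), the matrix proteoglycan decorin. In the 7 libraries with at least 10 cells of both, the Dcn-led cluster had the higher receptor levels. Pdgfra was 235 ± 97.1 CPM there and 102 ± 51.4 CPM in the Igfbp5-led cluster, higher in 7 of 7 libraries, by 1.21 ± 0.56 in log2(CPM + 1). For Pdgfrb the levels were 154 ± 90.7 and 29.3 ± 11.7 CPM, again higher in 7 of 7, by 2.21 ± 0.75. The ligand went the other way: Pdgfa was 59.7 ± 14.5 CPM in the Dcn-led and 145 ± 38.2 CPM in the Igfbp5-led cluster, lower in 7 of 7 (−1.26 ± 0.40). In the 3 libraries with 10 or more mural cells and Dcn-led fibroblasts (sham 1, severe 1 and severe 2), mural cells had 853 ± 511 CPM of Pdgfrb against 92.1 ± 40.7 CPM, and no Pdgfra against 193 ± 96.2 CPM. Mural cells were a subcluster of 87 cells in which 14 of 14 listed markers were detected; the limit, that most markers be detected, was set after the data were seen. A further subcluster of 174 cells with a median of 2188 UMIs scored as mural on 3 of 14 markers and was left in its class, where it made up 0.290% of fibroblasts and endothelial cells in sham, 0.758% in mild, 4.71% in moderate and 14.6% in severe; its Pdgfrb level was 14.2 CPM.

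**Figure D3:**
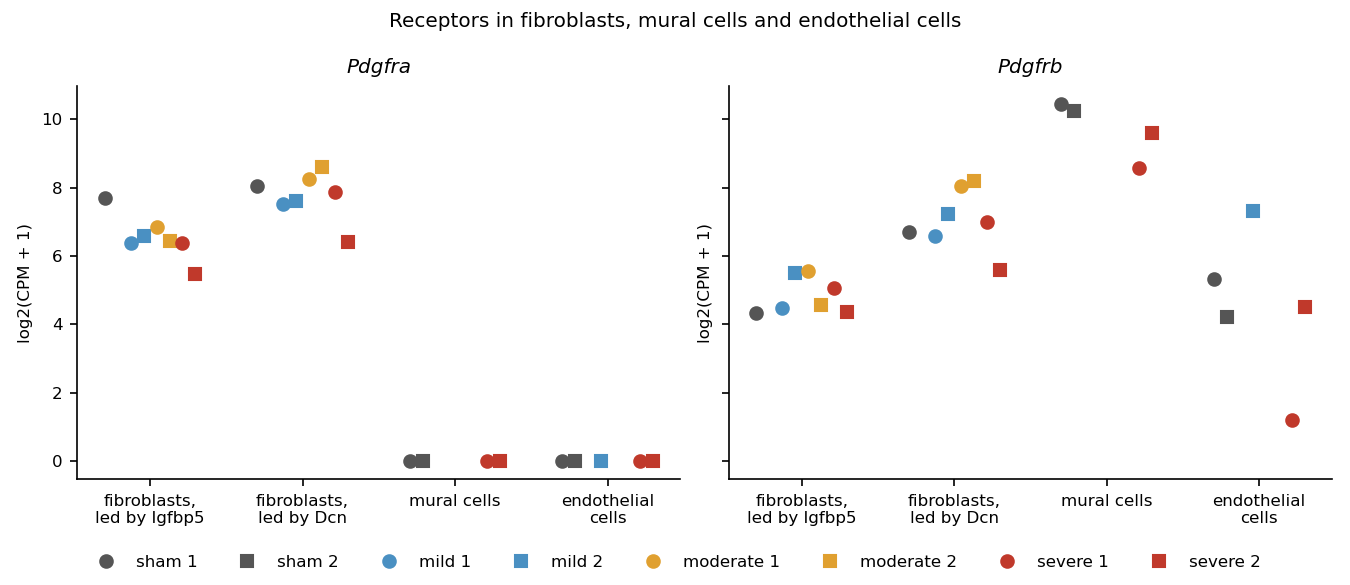
Pdgfra (left) and Pdgfrb (right) as log2(CPM + 1) of summed UMIs (vertical axes) in 2 fibroblast clusters named by their leading gene, in mural cells and in endothelial cells (horizontal axes); each point is a library with at least 10 cells of the set, coloured by group with the symbol marking the replicate. Mural and endothelial cells lie at 0 for Pdgfra, and mural cells lie highest for Pdgfrb.

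Oligodendrocyte precursors held a subset in cell cycle, a subset with oligodendrocyte markers such as Mag (315 cells), and the remaining cells. The subset with oligodendrocyte markers had the higher ligand and the lower receptor. Pdgfa was 327 ± 125 CPM there and 117 ± 27.7 CPM in the remaining cells, higher in 6 of 6 libraries, by 1.43 ± 0.56 in log2(CPM + 1). Pdgfra was 32.4 ± 21.0 CPM against 188 ± 150 CPM, lower in 6 of 6 (−2.30 ± 1.31). Cycling precursors (1351 cells) did not differ from the remaining cells beyond the spread of 4 libraries for Pdgfa (0.18 ± 0.25) or Pdgfra (−0.44 ± 0.58). Cells were put in these subsets by whole subcluster and not cell by cell. The share of precursors in cycling subclusters was 3.75% and 6.25% in sham, 69.3% and 51.4% in mild, 20.9% and 31.1% in moderate, and 1.41% and 0.568% in severe. A cycling subcluster held 67.9% and 50.8% of the precursors of mild 1 and 2. A subcluster of the remaining cells held 95.8% and 92.3% of those of severe 1 and 2, so these shares are not fractions of dividing cells. Several of the subclusters came mostly from 1 library, up to 91.7% from moderate 2.

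Shares of cells with a UMI rose with depth and were therefore compared after thinning each cell to 1000 UMIs. T cells/NK cells and erythrocytes are given beside the other types, though T cells/NK cells held Pdgfb at 8.15 ± 9.47 CPM and are no blank for it. The median share over libraries for Pdgfa was 18.7% in oligodendrocytes, 12.8% in precursors, 9.09% in endothelial cells, 8.44% in fibroblasts and 3.58% in macrophages/microglia, against 0.408% in T cells/NK cells and 0 of 1105 erythrocytes. Without thinning the first 5 were 84.9%, 63.9%, 46.1%, 49.5% and 30.1%, and that of T cells/NK cells 1.21%. For Pdgfb it was 13.2% in endothelial cells (52.2% unthinned) and 0.855% in macrophages/microglia (9.58%), against a median of 0 in T cells/NK cells (1.85%), where 0.445% of the pooled thinned cells had a UMI. Over libraries the thinned share ran from 0.0929% to 2.13% in macrophages/microglia and from 0 to 1.04% in T cells/NK cells. The ranges of these types thus overlapped, though their medians differed, and 0 of 1105 thinned erythrocytes had a UMI of Pdgfb. For the receptors, Pdgfra reached 11.8% in precursors (60.2%) and 11.2% in fibroblasts (59.0%), and Pdgfrb 11.1% in fibroblasts (47.7%), 78.4% in the mural cells of sham 1 and 1.96% in endothelial cells (3.92%). None of 1573 thinned T cells/NK cells had either receptor, which allows up to 0.191% of cells with a UMI. Median depth was 2995 UMIs in T cells/NK cells, 6612.5 in erythrocytes, 8406 in endothelial cells, 10856 in precursors, 11646 in macrophages/microglia and 13785.5 in fibroblasts. Among precursors, 1520 of the 2389 cells with a Pdgfra UMI (63.6%) also had 1 of Pdgfa, which 66.1% of all precursors had, and 25 of 4107 had 1 of Pdgfrb. Among fibroblasts, 718 of the 958 cells with a Pdgfrb UMI (74.9%) also had 1 of Pdgfra, which 61.4% of the class had. With mural cells left out it was 718 of 875 (82.1%), against 63.8% of the cells. Of those with Pdgfra 51.9% had Pdgfrb, against 42.5% of the class and 40.4% without mural cells. These shares were not thinned, and the part of depth in them was not tested.

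The cell types also contributed by their numbers. Over all libraries, oligodendrocytes held 37.6% of the Pdgfa UMIs, macrophages/microglia 24.6%, precursors 18.6% and fibroblasts 9.26%, and the leading source changed with the library, from oligodendrocytes in sham 1 (74.2%) to macrophages/microglia in sham 2 (76.6%) and fibroblasts in severe 1 (43.0%). Although the Pdgfb level was low in macrophages/microglia, this class held 76.9% of the gene's UMIs and endothelial cells 15.8%. Of the 2405 UMIs of the class, 2363 lay in microglia-type clusters, and 968 came from moderate 2. In sham 1 and severe 1, however, endothelial cells held more, with 73.2% and 53.2%. Precursors held 51.9% of Pdgfra UMIs and fibroblasts 45.3%, in ranges of 11.02% to 93.8% and 4.69% to 88.4%. For Pdgfrb the fibroblast class held 91.3%, mural cells alone 12.8%, and endothelial cells 4.19%. These shares follow how many cells of a type were captured in a library, and fewer cells in the tissue and fewer cells recovered cannot be told apart.

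**Figure D4:**
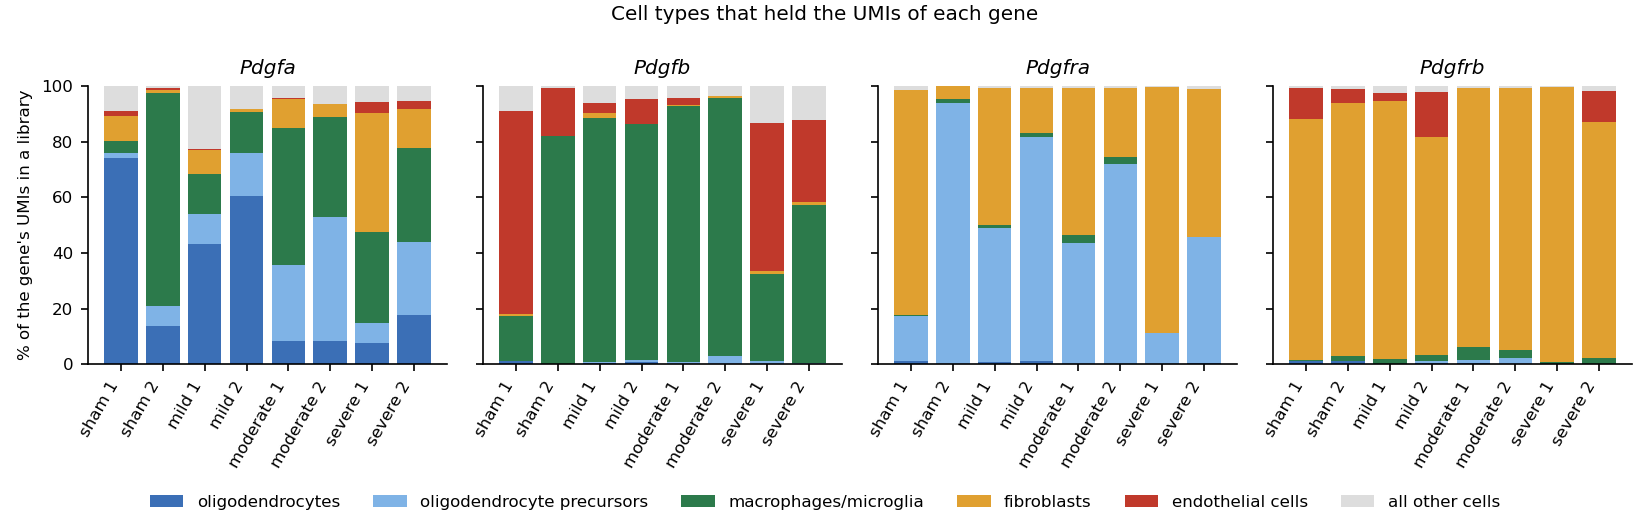
Percent of each gene's UMIs (vertical axis, 0 to 100) held by 5 cell types and all other cells in each of the 8 libraries (horizontal axis); fibroblasts include the mural cells that clustered with them. Pdgfb lies mostly in macrophages/microglia except in sham 1 and severe 1, and Pdgfrb in the fibroblast class in all libraries.

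Injury groups were compared with edgeR's quasi-likelihood test on the summed UMIs, and of 39 tests of the 4 genes in the 4 types 1 passed at a Benjamini-Hochberg adjusted p of 0.05. Pdgfra in oligodendrocyte precursors was the gene: it measured 333 and 161 CPM in sham, 95.9 and 121 in mild, 105 and 150 in moderate, and 89.3 and 33.8 in severe. All injured libraries lay below both sham libraries, and severe 2 was the lowest. The share of all genes whose libraries separate in this way is not given, here and in the paragraphs that follow. Such separations therefore describe the libraries and are not results about the genes. In severe injury Pdgfra fell by 1.73 on the log2 scale (SE 0.42, adjusted p = 0.0248), where 10.9% of the 11946 genes tested passed and 5.45% passed as lower (mild 6.82%, moderate 8.39% and severe against mild 4.58% in either direction). The mild (−1.14, SE 0.40, adjusted p = 0.0985) and moderate differences (−0.91, SE 0.40, adjusted p = 0.166) did not pass in the main fit. They passed in 2 and 1 of 15 alternatives, fits with 1 library left out included. Severe against mild did not pass (−0.60, SE 0.40, adjusted p = 0.4001). The call was lost without sham 1 (−1.15, adjusted p = 0.131), without severe 2 (−1.16, adjusted p = 0.202) and in a fit of only the 2 groups (−1.84, adjusted p = 0.0694). In sham 1, which had 80 precursors, fibroblast markers (18 genes) summed to 4427 CPM in these cells against 82.7 to 643 CPM in the other libraries, and neutrophil markers (15 genes) to 6455 against 72.6 to 492 CPM. A subcluster of 61 precursors led by Mgp and S100a9, 83.6% of them from sham 1, held Pdgfra at 574 CPM. A subcluster of 437 precursors led by LOC103694857, with the haemoglobin gene Hba-a2 and the ribosomal gene Rps19 among its leading genes, held it at 47.2 CPM, and 74.4% of these came from severe 2. Different subclusters thus made up the class in the groups compared: the former held 63.8% of the precursors of sham 1 and 8.75% of those of sham 2, and the latter 2.50% and 52.5% of those, and 95.8% and 92.3% of the precursors of severe 1 and 2. The part of these cells and markers in the difference was not tested.

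Pdgfa in the same cells was 130 and 79.2 CPM in sham and 150 and 153 CPM in severe. Both severe libraries lay above both sham libraries, with a difference of 0.89 (SE 0.27) that did not pass (adjusted p = 0.0546), and mild (0.45, SE 0.27, adjusted p = 0.303) and moderate (0.41, SE 0.27, adjusted p = 0.355) did not either. The severe difference passed in 3 of 15 alternatives, which include fits with 1 library left out, and ran from 0.54 to 1.29 over them all. Pdgfb and Pdgfrb were too low in precursors to be tested. Pdgfa in oligodendrocytes, which was not tested between groups, was 359 and 226 CPM in sham, 265 and 389 in mild, 188 and 226 in moderate, and 240 and 193 in severe. Each injured group overlapped sham, and moderate overlapped severe, while both mild libraries lay above both moderate and both severe libraries.

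**Figure D5:**
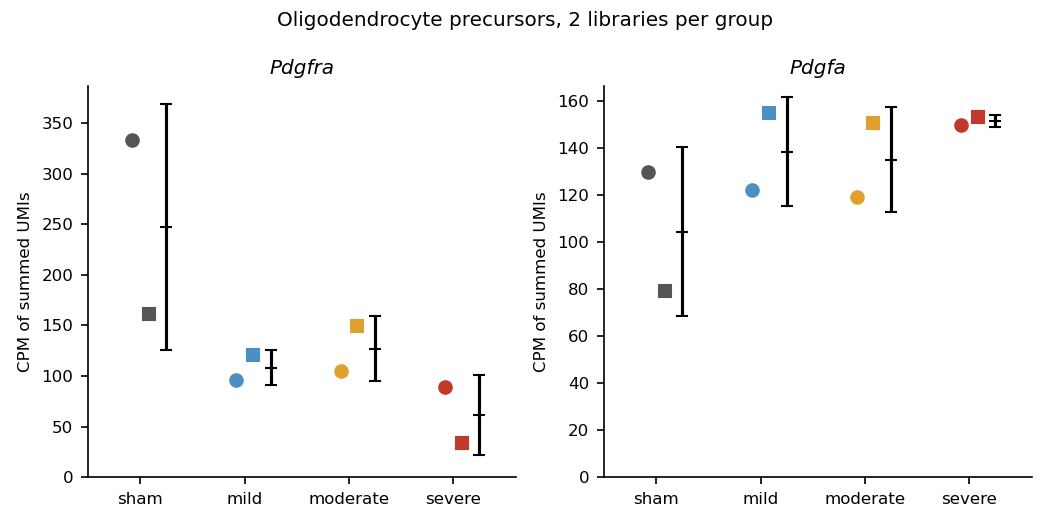
Pdgfra (left) and Pdgfa (right) in oligodendrocyte precursors, in CPM of summed UMIs (vertical axes from 0), by injury group (horizontal axes); each point is 1 library, and the bar beside them gives the group mean ± SD (n = 2). The sham libraries (333 and 161 CPM) lie highest for Pdgfra and the severe ones (89.3 and 33.8 CPM) lowest.

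In macrophages/microglia none of the 16 tests passed, where 2.65% of 12657 genes passed for mild, 5.11% for moderate and 14.2% for severe against sham, and 11.5% for severe against mild. Pdgfb was 10.6 and 16.8 CPM in sham, 7.17 and 7.95 in mild, 5.74 and 22.3 in moderate, and 3.71 and 1.91 in severe. The mild and severe libraries lay below both sham libraries, and the moderate pair spanned them. The differences were −0.91 (SE 0.61, adjusted p = 0.364) in mild, 0.02 (SE 0.61, adjusted p = 0.988) in moderate and −1.92 (SE 0.64, adjusted p = 0.0788) in severe. Severe injury passed in 5 of 17 alternatives, among them DESeq2 (−1.85, adjusted p = 0.0201). Fits without moderate 1 (−1.88) and without moderate 2 (−1.89) were others, and each left 1 library in that group. Within the microglia-type clusters alone the difference was −0.24 (SE 0.74, adjusted p = 0.869), an alternative added after the data were seen. In severe 1 these clusters held 195 cells and 59 UMIs of Pdgfb. Of the set, a cluster of 1244 cells led by Il1b came to 86.3% from severe 2. Another of 1750 cells led by Cst3 came to 85.5% from sham 2, and 3338 cells formed a cycling cluster. The set thus did not hold like cells in sham and severe, and its difference is not a value for 1 fixed kind of microglia. The microglia-type share itself was lower in both severe libraries than in the others, as given above, and its part in the difference was not tested. Pdgfa differed by −0.24 (SE 0.43) in mild, −0.15 (SE 0.43) in moderate and 0.27 (SE 0.43) in severe, with adjusted p from 0.685 to 0.864. The receptors were near 0 in these cells, with Pdgfra at 1.87 CPM or less in every library: its differences were 2.54 (SE 0.92, adjusted p = 0.132) in moderate and −2.77 (SE 1.32, adjusted p = 0.181) in severe against sham, and −3.83 (SE 1.06, adjusted p = 0.0520) in severe against mild. That last value passed in 6 of 17 alternatives, among them DESeq2 (adjusted p = 0.0359). The fits without sham 1 and without sham 2 were others, and each left 1 sham library. Pdgfrb differed by 2.04 (SE 0.84, adjusted p = 0.171) in moderate. Fibroblast markers summed to 19.8 to 518 CPM in macrophages/microglia of the 8 libraries, highest in moderate 2 and severe 1, and their part in these receptor values was not tested.

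Fibroblasts gave no call among 12 tests, where 0.292%, 1.62% and 1.65% of 11303 genes passed for mild, moderate and severe against sham and 0.752% for severe against mild. Pdgfrb was 106 and 866 CPM in sham, 44.5 and 147 in mild, 142 and 238 in moderate, and 59.6 and 36.6 in severe. Both severe libraries lay below both sham libraries (log2 difference −2.60, SE 0.83, adjusted p = 0.131). Without sham 2, the library whose fibroblast class was mostly mural cells, the difference was −0.93 (adjusted p = 0.402), and without sham 1 it was −3.44 (adjusted p = 0.0347). Of 14 alternatives 3 called the severe difference, among them DESeq2 (adjusted p = 0.00701). Of the fibroblasts that were not mural cells, those of the Dcn-led cluster, where Pdgfrb was higher, made up 39.2% and 100% in sham (7 cells in sham 2), 31.0% and 82.9% in mild, 43.2% and 76.6% in moderate, and 19.6% and 27.4% in severe; the part of this mix was not tested. In mild (−1.97, SE 0.82, adjusted p = 0.220) and moderate (−1.05, SE 0.80, adjusted p = 0.503) Pdgfrb did not pass, though 1 of 14 alternatives called it in mild. Pdgfra differed by −0.18 (SE 0.63), 0.57 (SE 0.63) and −0.63 (SE 0.63) in mild, moderate and severe, with adjusted p from 0.599 to 0.910. Pdgfa, at 108 and 75.3 CPM in sham and 144 and 113 CPM in severe, differed by 0.73 in severe (SE 0.39, adjusted p = 0.319), and by −0.11 and −0.23 in mild and moderate (adjusted p = 0.917 and 0.792). Neutrophil markers summed to 5213 CPM in fibroblasts of sham 1 against 58.5 to 393 CPM elsewhere, and of the fibroblasts and endothelial cells 42 lay in a subcluster with 11 of 15 neutrophil markers, all from sham 1, and 230 in an unnamed subcluster with 7 of 15, of which 185 were from sham 1; their part in these values was not tested.

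In endothelial cells only severe injury could be tested against sham, and none of 3 genes passed, where 0.406% of 7885 genes did. Pdgfa was 56.1 and 14.1 CPM in sham and 138 and 113 CPM in severe. The sham 2 value rests on 4 UMIs in 51 cells. The groups did not overlap, and the difference of 1.88 (SE 0.49) had an adjusted p of 0.139. It passed in 2 of 13 alternatives, which include fits with 1 library left out. Without sham 1 the difference was 3.399, with those 4 UMIs as the whole of sham. Fits without sham 1 take the lone sham library to vary like the other groups. Pdgfb differed by −0.73 (SE 0.50, adjusted p = 0.546). It passed without sham 1 (−1.24, adjusted p = 0.0255), and ranged from −1.49 without severe 1 to −0.15 without sham 2. Pdgfrb differed by −1.002 (SE 0.75, adjusted p = 0.577), and by −4.23 without severe 2 (adjusted p = 0.244), −0.14 without severe 1 (0.964) and −0.15 without sham 1 (0.939). Neutrophil markers summed to 5847 CPM in endothelial cells of sham 1 and 77.8 CPM in those of sham 2. Over all kept cells together, none of 16 tests of the 4 genes passed, where 0% of 15882 genes passed in mild and in moderate, 0.371% in severe, and 0.447% in severe against mild. The 0 calls in mild and moderate stand beside 3673 and 3028 genes with an unadjusted p under 0.05 in edgeR, and 2044 and 1509 calls by DESeq2. Pdgfb had the widest difference there, −2.06 (SE 0.77, adjusted p = 0.183) in mild.

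The other genes of the pathway were read from a list of 28: further ligands, proteases that process ligands, co-receptors, signalling proteins and negative regulators. In macrophages/microglia 26 could be tested, and 3.85% of them passed in mild, 7.69% in moderate, 11.5% in severe and 19.2% in severe against mild, beside the 2.65%, 5.11%, 14.2% and 11.5% of all genes given above. In mild injury 1 rose and none fell: St14, which codes for the protease matriptase, by 1.54 (SE 0.30, adjusted p = 0.0436), a call lost without any of the mild, moderate or severe libraries (adjusted p up to 0.315). In moderate injury 2 rose and none fell, the proprotein convertase gene Furin by 1.55 (SE 0.30, adjusted p = 0.0292) and the urokinase gene Plau by 2.79 (SE 0.48, adjusted p = 0.0206). Without moderate 2 neither passed (0.197 and 0.117), and Furin did not without mild 1 (0.0670) or mild 2 (0.0687). In severe injury Furin (1.75, SE 0.30, adjusted p = 0.0110) and Plau (2.09, SE 0.47, adjusted p = 0.0262) rose, and the phospholipase gene Plcg1 fell (−1.38, SE 0.34, adjusted p = 0.0332). The median over the listed genes was 0.04 in mild, 0.18 in moderate, −0.14 in severe and 0.18 in severe against mild, against −0.02, −0.01, −0.12 and −0.04 over all genes tested. Neither protease kept its severe call within microglia-type clusters (adjusted p = 0.261 for Furin and 0.0600 for Plau), nor without severe 1 (0.0593 and 0.0560); Plau also lost it without severe 2 (0.109), and Plcg1 without any library other than sham 1 (up to 0.149). Severe against mild gave 2 higher, Furin (1.10, adjusted p = 0.0480) and the adaptor gene Nck1 (1.12, adjusted p = 0.0436), and 3 lower, St14 (−2.20, adjusted p = 0.00604), Plcg1 (−1.30, adjusted p = 0.0400) and the Ras regulator gene Rasa1 (−0.94, adjusted p = 0.0466); each of these 5 calls was lost without mild 1, without mild 2 and without severe 1. With 1 library left out the folds stayed at 0.75 to 1.39 for Furin, 0.92 to 1.29 for Nck1, −2.28 to −2.11 for St14, −1.61 to −1.09 for Plcg1 and −1.04 to −0.84 for Rasa1. St14 was lost in 3 of 17 alternatives and the other 4 in 10 or 11.

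Precursors had 27 listed genes tested, of which 1 fell in mild injury (Pik3r1, a regulatory subunit of phosphoinositide 3-kinase, by −1.43, SE 0.32, adjusted p = 0.0277; 3.70% of the list against 6.82% of all genes), none passed in moderate, and 3 fell in severe. These were the co-receptor gene Lrp1 (−1.58, SE 0.28, adjusted p = 0.00797), the receptor phosphatase gene Ptprj (−1.37, SE 0.36, adjusted p = 0.0340) and the kinase subunit gene Pik3ca (−1.16, SE 0.33, adjusted p = 0.0436), so 11.1% of the list against 10.9% of all genes. The list's median was −0.20 in mild, 0.14 in moderate, −0.24 in severe and −0.05 in severe against mild, against −0.02, 0.02, −0.07 and −0.06 over all genes. Without severe 2 all 3 calls were lost (adjusted p = 0.111 for Lrp1, 0.213 for Ptprj and 0.311 for Pik3ca), and without sham 1 those of Ptprj (0.377) and Pik3ca (0.131). With 1 library left out, Ptprj kept its call only without sham 2 and Pik3ca only without severe 1, and Pik3r1 lost its own without sham 1 (0.0732), mild 1 (0.237) or mild 2 (0.100). Fibroblasts had 26 tested and 1 call, Ptprj in severe injury (−2.42, SE 0.45, adjusted p = 0.0381), which was lost in 10 of 14 alternatives, among them without any library other than sham 2 (adjusted p up to 0.694, without sham 1); this was 3.85% of the list against 1.65% of all genes. The list's median there was −0.31 in mild, 0.03 in moderate, −0.51 in severe and −0.19 in severe against mild, against 0.03, 0.03, −0.00 and −0.00 over all genes. In sham 2 the fibroblast class behind these values had 28 cells, 21 of them mural, and 106270 UMIs. Ptprj measured 9.41 CPM in that library, and some listed genes, such as Sos1 and Crk, had 0. In endothelial cells none of 21 passed, with the ligand Pdgfd at −1.22 (SE 0.89, adjusted p = 0.565), and none of 27 passed over all kept cells. Of the other ligands, Pdgfc was highest on average in astrocytes (24.1 ± 15.95 CPM, n = 7, from 6.82 to 49.6 CPM), which were not tested between groups. It was 8.50 ± 2.35 CPM in precursors and 6.94 ± 4.63 CPM in fibroblasts (n = 8 each), and 0.508 ± 0.333 CPM in macrophages/microglia. Pdgfd was 11.8 ± 15.5 CPM in endothelial cells (n = 5), from 0 to 38.9 CPM, and 3.18 ± 2.79 CPM in fibroblasts (n = 8), and the libraries of these types overlapped. In fibroblasts of the mild group Pdgfc differed by 1.66 (SE 0.69, adjusted p = 0.219) and Pdgfd by −0.98 (SE 0.73, adjusted p = 0.471), and in those of the moderate group by 0.82 (SE 0.69, adjusted p = 0.547) and −1.33 (SE 0.70, adjusted p = 0.321).

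The genes most like each member were found by Pearson's r of log2(CPM + 1) over 67 units of 1 library and 1 cell type, among 8702 genes. The units share libraries and depth, and the values describe likeness without a test. For Pdgfa the nearest were Bnip3 (r = 0.90), Rhoc (0.87), Wipi1 (0.84) and Asrgl1 (0.84). For Pdgfb they were the tight junction gene Ocln (0.83), the Notch ligand gene Jag2 (0.80), the receptor genes Tek (0.78) and Tie1 (0.78), both among the endothelial markers used for naming, and Slc52a3 (0.76). Pdgfra lay nearest to Tmem100 (0.93), Tspan11 (0.92), the Wnt-binding protein gene Frzb (0.92), AABR07068316.1 (0.90) and the proteoglycan gene Bgn (0.90). Pdgfrb lay nearest to the laminin gene Lama2 (0.93), Slc6a13 (0.93), Foxs1 (0.93), the complement gene C7 (0.93) and the potassium channel gene Kcnj8 (0.92), a mural marker used for naming.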

How the data were processed

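The authors deposited raw UMI counts per gene and cell, made with Cell Ranger (5.0.1 per the file headers) on rat build Rnor_6.0 per the submitters' processing notes. Cells were filtered after the study's methods: cells above 10% mitochondrial UMIs, the 7.7% of cells with the highest doublet scores in each library, and cells beyond 2 SD of the mean UMI or gene number were removed. The doublet caller, Scrublet (scanpy 1.11.5), and this reading of the limits on UMI and gene number were chosen here. Seurat 5.3.0 clustered the cells (4000 variable genes, 15 components, resolution 0.4, no batch correction). The 4 genes and 28 pathway genes took no part in clustering or naming. Clusters were named from marker lists for 15 cell types (201 of 215 entries found). UMIs were summed per cell type and library and tested in edgeR 4.0.16 (quasi-likelihood test, TMM scaling, filterByExpr, Benjamini-Hochberg adjustment at 0.05) with all 4 groups in 1 fit. On simulated counts only the edgeR fit was checked, for severe against sham in all kept cells and in macrophages/microglia. The other contrasts, cell types and tests were not simulated. Cell types were compared within libraries on log2(CPM + 1) by exact permutation. Named genes were the 4 members, each pathway gene past the threshold (Pdgfc and Pdgfd where none passed) and the 5 genes most like each member among those at 20 CPM or more in a cell type, 1 of which is not reported here. Limits for counts of 0 use 3 counts and cover counting error only. Members and lists were chosen with earlier results of these data known. DESeq2 1.42.0, other scalings, filters, clusterings and left-out libraries were alternatives.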

Additional observations from a re-analysis of the deposited data

Results flagged for a closer look

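The moderate and sham libraries did not overlap for Pdgfra in a pair of cell types, in opposite directions. In macrophages/microglia the moderate libraries (0.969 and 1.87 CPM) lay above both sham libraries (0.719 and 0.0932 CPM), with a log2 difference of 2.54, and in oligodendrocyte precursors the moderate libraries (105 and 150 CPM) lay below both (333 and 161 CPM), with a log2 difference of −0.91. Neither passed edgeR's quasi-likelihood test (adjusted p = 0.132 and 0.166), and the difference between the cell types was not tested. The former passed in 2 of 17 alternatives and the latter in 1 of 15, fits with 1 library left out included. The macrophage levels are near 0 and rest on 3 and 2 UMIs in sham and 64 and 81 in moderate. Fibroblast markers in these cells summed to 288 and 19.8 CPM in sham and 375 and 518 CPM in moderate, and their part was not tested. The share of all genes whose libraries separate in this way is not given.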

How the results depend on the processing

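Each group had 2 libraries, and endothelial cells were tested in 5 libraries in all. Leaving out 1 library moved 93 of 133 counts by over 1.5 times. Of the fold changes under other settings 464 stayed on their side of the threshold in the main direction, 45 lost and 15 gained a call, and 14 reversed; for 1 DESeq2 gave no adjusted p. The causes were not tested. Without mural cells, and at resolution 0.8, fibroblasts could not be set against sham, since sham 2 fell under 20 cells.

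Numbers of genes called follow in the order mild, moderate and severe against sham and severe against mild. Over all kept cells they were 48, 145, 243 and 158 with no filter on low counts, and 2044, 1509, 1354 and 1114 with DESeq2. Severe against sham gave 102 with all deposited barcodes and 0 with only the 2 groups fitted, where severe against mild gave 553. In macrophages/microglia they were 1972, 2126, 2987 and 2809 with no filter, 0, 0, 538 and 2963 with only the 2 groups, 820, 191, 955 and 312 with the unnamed cluster added and 732, 122, 227 and 342 in microglia-type clusters, the last pair of settings chosen after seeing the data. DESeq2 gave 1595 in mild, 1578 in moderate and 2344 in severe against mild. Library size alone gave 3176 in severe and 2920 in severe against mild, with 610 higher and 2566 lower in severe (985 and 807 with TMM) and 549 and 2371 in severe against mild (814 and 645). Mild gave 530 without doublet removal and 1351 at resolution 0.8, where severe against mild gave 474. In precursors they were 1764, 1837, 2210 and 1222 with no filter and 0, 216, 250 and 1236 with only the 2 groups. Library size alone gave 1059 in severe against mild (171 higher and 888 lower, against 264 and 283) and 295 higher and 1186 lower in severe (647 and 651). In fibroblasts they were 1184, 1376, 1494 and 768 with no filter and 224, 401, 410 and 150 with DESeq2, and 0 against sham with only the 2 groups. Mild gave 217 and severe 293 without doublet removal. Severe against mild gave 146 with library size alone, 213 at resolution 0.8 and 209 without mural cells (chosen after seeing the data). Library size alone split fibroblasts into 121 higher and 52 lower in moderate (107 and 76), 67 and 135 in severe (91 and 96) and 37 and 109 in severe against mild (48 and 37). In endothelial cells severe injury gave 13 with library size alone, 430 with no filter, 63 with DESeq2 and 58 at resolution 0.8. Library size alone moved the median log2 change over all genes in severe injury from −0.12 to −0.60 in macrophages/microglia, from −0.07 to −0.41 in precursors, from −0.00 to −0.30 in fibroblasts and from −0.06 to −0.35 in endothelial cells.

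Same-numbered libraries did not deviate together (r from −0.35 to 0.39), so the numbers are not taken as pairs. With the replicate block, the calls were 10 in severe and 26 in severe against mild over all kept cells, 16, 367, 1165 and 919 in macrophages/microglia, 427 in mild, 816 in severe and 311 in severe against mild in precursors, and 50 in endothelial cells. Under the block Pdgfra in all kept cells differed by 0.065 in mild, Pdgfrb by −0.033 in severe, and Pdgfb in macrophages/microglia by −0.042 in moderate, each with the sign turned.

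With at least 100 cells the 9 called differences between cell types no longer passed, for want of libraries. Their values were −2.04 and −1.35 for Pdgfa in macrophages/microglia minus precursors and minus fibroblasts, 0.60 for precursors minus fibroblasts, 2.50 and 2.37 for Pdgfb, −5.78 and −6.62 for Pdgfra, and −6.20 and −6.15 for Pdgfrb in macrophages/microglia and precursors minus fibroblasts. Pdgfb in precursors minus fibroblasts (−0.04) turned to 0.24 without doublet removal, 0.0039 at resolution 0.8 and 0.0033 without mural cells.

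Other fold changes turned sign under other settings. In all kept cells Pdgfa in mild was −0.12 with all barcodes, Pdgfrb in moderate −0.014 with only the 2 groups, and Pdgfrb in severe −0.073 with library size alone. In macrophages/microglia in severe injury Pdgfrb was −0.19 with library size alone and −0.17 without doublet removal, and Pdgfa −0.25 with library size alone. Pdgfb in moderate was −0.0079 without doublet removal. In severe against mild Pdgfrb was −0.41 with library size alone and −0.47 without doublet removal, and in microglia-type clusters Furin was −0.043 and Pdgfb 0.70.

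The median share of cells with a UMI thinned to 500 UMIs was 9.88% in oligodendrocytes and 5.96% in precursors for Pdgfa and 5.48% in endothelial cells for Pdgfb. Without thinning it was 84.9% and 63.9% for Pdgfa, 52.2% in endothelial cells and 9.58% in macrophages/microglia for Pdgfb, 60.2% in precursors and 59.0% in fibroblasts for Pdgfra, and 47.7% in fibroblasts for Pdgfrb.

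With 1 library left out, calls ranged from 0 to 3453, 0 to 2931, 0 to 2797 and 0 to 1019 over all kept cells. They ranged from 0 to 1177, 51 to 1432, 412 to 2232 and 90 to 2973 in macrophages/microglia, 34 to 1706, 112 to 1460, 37 to 2470 and 85 to 1402 in precursors, 0 to 356, 4 to 450, 21 to 623 and 29 to 219 in fibroblasts, and 1 to 400 in endothelial cells.

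Fold changes of the 4 genes that turned sign with 1 library left out had these ranges. All kept cells, mild against sham, gave −0.95 to 1.27 for Pdgfra and −0.39 to 1.28 for Pdgfa. All kept cells, moderate against sham, gave −1.54 to 0.54 for Pdgfb, −0.49 to 0.87 for Pdgfrb and −1.13 to 0.54 for Pdgfa. All kept cells, severe against sham, gave −1.21 to 1.74 for Pdgfra, −1.47 to 0.94 for Pdgfrb and −0.76 to 0.92 for Pdgfa. All kept cells, severe against mild, gave −0.22 to 0.93 for Pdgfb, −0.98 to 1.15 for Pdgfra and −0.68 to 0.039 for Pdgfa. Macrophages/microglia, mild against sham, gave −0.24 to 2.32 for Pdgfra, −0.48 to 0.50 for Pdgfrb and −0.56 to 0.21 for Pdgfa. Macrophages/microglia, moderate against sham, gave −1.23 to 0.70 for Pdgfb and −0.48 to 0.30 for Pdgfa. Macrophages/microglia, severe against sham, gave −0.46 to 0.84 for Pdgfrb and −0.32 to 0.74 for Pdgfa. Macrophages/microglia, severe against mild, gave −0.39 to 0.65 for Pdgfrb and −0.11 to 0.95 for Pdgfa. Fibroblasts, mild against sham, gave −0.78 to 1.76 for Pdgfra and −0.51 to 0.67 for Pdgfa. Fibroblasts, moderate against sham, gave −0.025 to 2.51 for Pdgfra, −1.89 to 0.61 for Pdgfrb and −0.52 to 0.53 for Pdgfa. Fibroblasts, severe against sham, gave −1.21 to 1.32 for Pdgfra. Fibroblasts, severe against mild, gave −1.26 to 0.46 for Pdgfrb. Pdgfb in precursors minus fibroblasts ranged from −0.19 to 0.048.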

Other observations

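The 4 unnamed clusters entered no main comparison. The cluster of 4990 cells led by LOC100911104, Fn1 and RGD1559482 had 1968 UMIs of Pdgfa (41.8 ± 11.98 CPM, SD, n = 5 libraries) and 17 of Pdgfra. The 2029 cells led by Anxa3, Rps19 and Cst3 had 97 UMIs of Pdgfa (23.7 ± 12.8 CPM, n = 8) and 19 of Pdgfb (3.23 ± 4.35 CPM). Both clusters had macrophages/microglia as their best-scoring type. The 576 cells led by Ighm and Cd74 had 21 UMIs of Pdgfa and none of the other 3 genes, and the 397 cells led by Pf4 had 7 UMIs of Pdgfa and 1 of each of the others.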
